A study of Mus musculus with 3 samples.

Results

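The windows described here were the most accessible stretches of the mouse genome that lie inside protein-coding genes but away from their starts. Chromosomes 1 to 19 were cut into windows of 1000 bp, and a window was eligible where it lay wholly inside a protein-coding gene body of GENCODE M21 (build mm10, GRCm38) and more than 5 kb from the start of any protein-coding transcript. Of 801512 eligible windows, the 3000 members were chosen by the sum of their fragment midpoints in the vehicle and sunitinib libraries, after the 50 windows with the highest sums had been left out as possible artefact piles. They lay in 1599 host genes, and a window is called here by its host gene, which says where it is and not which gene it acts on.

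The study measured open chromatin and nuclear RNA in single nuclei of mouse heart, and only the chromatin arm was analysed here. All 3 groups were hearts of wild-type (WT) mice, snap-frozen before nuclei were isolated, and all 3 titles carry 3 months without saying whether this is an age or a time on treatment. The groups were vehicle (titled Control), sunitinib (titled by its class, TKI, a tyrosine kinase inhibitor) and sunitinib plus Yoda1, an activator of the mechanically gated channel PIEZO1 (titled by Yoda1 alone, with the combination given in the design text). Strain, sex, dose and the number of hearts per library are not given in the sources used here. Each group was 1 library, so no difference between groups could be tested, and every interval below covers counting error within a library only.

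The libraries differed in ways that touch every comparison below. Vehicle held 18704581 unique fragments, sunitinib 23653823 and Yoda1 583792, from 148947808, 210143978 and 209296546 read pairs. In the Yoda1 library 42.1% of fragments shared their start and end with a fragment of another barcode, against 5.67% and 6.83%. Its 252940 fragments of at least 100 read pairs are called deep here, a limit set after seeing the data. Nuclei called by fragment number and by the enrichment of fragment ends at coding starts were 2735 in vehicle, 3912 in sunitinib and 12 in Yoda1. Vehicle and sunitinib shared 22 nucleus barcodes, and neither shared any with Yoda1.

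A transposase cuts DNA where nucleosomes do not cover it, so fragments gather in open DNA. A sum of midpoints over barcodes does not give the number of nuclei in which a window was open. Most promoters are open in most cell types. Distal elements, many of them enhancers within introns, are opened by the transcription factors of a cell type, such as MEF2, GATA4 and TBX5 in cardiomyocytes, ETS factors in endothelium and RUNX and TCF factors in T cells. A heart holds cardiomyocytes, endothelial cells, fibroblasts, mural cells and blood-derived cells, and an intron can be open in a cell that does not use the host gene.

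A minority of the windows held the start of another, non-coding transcript within the host gene, and these are shown because their sequence is known base by base. Kcnq1ot1 and Airn are imprinted antisense RNAs that start within introns of the potassium channel gene Kcnq1 and of the receptor gene Igf2r. Dnm3os starts on the opposite strand within the dynamin gene Dnm3 and carries microRNAs, and A430090L17Rik starts within Arl15. The sequences come from RefSeq (GRCm38.p6), run 5′ to 3′ on the strand of the transcript and cover 250 bases before to 50 after its start. Capitals mark matches to the ETS letters CNGGAAG, the CCAAT box CCAAT or the AP-1 letters TGANTCA on either strand.
Kcnq1ot1, chr7:143296498-143296797, minus strand: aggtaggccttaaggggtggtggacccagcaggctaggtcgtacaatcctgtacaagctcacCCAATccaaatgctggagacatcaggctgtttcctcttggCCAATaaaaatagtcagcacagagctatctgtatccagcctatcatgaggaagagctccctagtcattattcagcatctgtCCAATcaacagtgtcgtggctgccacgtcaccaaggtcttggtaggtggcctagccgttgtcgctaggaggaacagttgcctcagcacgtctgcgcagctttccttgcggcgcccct
Airn, chr17:12741061-12741360, plus strand: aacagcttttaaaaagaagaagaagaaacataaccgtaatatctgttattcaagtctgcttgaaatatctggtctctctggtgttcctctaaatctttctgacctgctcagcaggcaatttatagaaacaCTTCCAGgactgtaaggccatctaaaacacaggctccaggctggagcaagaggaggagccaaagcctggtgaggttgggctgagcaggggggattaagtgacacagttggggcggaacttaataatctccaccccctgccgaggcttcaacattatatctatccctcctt
Dnm3os, chr1:162217373-162217672, plus strand: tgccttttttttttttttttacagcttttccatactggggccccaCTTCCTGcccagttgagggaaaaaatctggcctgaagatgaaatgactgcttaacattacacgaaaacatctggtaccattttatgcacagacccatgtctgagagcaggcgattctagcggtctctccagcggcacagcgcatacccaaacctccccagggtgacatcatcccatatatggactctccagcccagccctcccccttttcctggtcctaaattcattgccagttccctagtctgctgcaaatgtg
A430090L17Rik, chr13:114151543-114151842, minus strand: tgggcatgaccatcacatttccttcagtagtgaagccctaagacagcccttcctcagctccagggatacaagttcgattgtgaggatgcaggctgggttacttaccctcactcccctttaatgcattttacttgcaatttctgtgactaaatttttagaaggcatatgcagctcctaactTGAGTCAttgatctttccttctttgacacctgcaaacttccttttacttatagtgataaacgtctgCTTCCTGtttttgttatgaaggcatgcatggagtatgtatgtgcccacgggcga

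The window of Kcnq1ot1 held 126 midpoints in vehicle and 174 in sunitinib, and 61 and 91 of them fell within the 300 bases printed, which hold 3 CCAAT boxes and 9 CpG pairs. Airn's window held 108 and 183, with the densest point 11 bp from the start and 40 and 56 midpoints within the printed bases. Dnm3os's window held 86 and 99, of which 46 and 52 were in the printed bases, with the densest point 16 bp from the start. Each of these 3 starts was open in both libraries. The A430090L17Rik window differed more, with 42 midpoints in vehicle and 155 in sunitinib, a log2 ratio per fragment of 1.53 (95% interval 1.04 to 2.07). Levels between cell classes are given per 1000000 fragments of the class. The Dnm3os window stood at 21.1 in mural-like and 15.1 in fibroblast-like nuclei against 0.51 in T lymphoid-like ones, and the A430090L17Rik window at 26.9 in T lymphoid-like nuclei, 7.15 times the next class, while the Kcnq1ot1 window ranged only from 4.30 in myeloid-like to 10.2 in T lymphoid-like nuclei.

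The Dnm3os window also held both arms of mir-199a, and a window in Bcas3 held miR-5110. These were the mature microRNAs of the RefSeq table that lay in member windows, printed with the seed (bases 2 to 8) in capitals, and the 3 seeds differ from each other.
miR-199a-5p, chr1:162217844-162217866, plus strand: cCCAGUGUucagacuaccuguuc
miR-199a-3p, chr1:162217883-162217904, plus strand: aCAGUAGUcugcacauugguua
miR-5110, chr11:85760675-85760699, minus strand: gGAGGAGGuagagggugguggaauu

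The Bcas3 window of miR-5110 held 62 midpoints in vehicle and 92 in sunitinib. The sites give the position of the microRNA genes, and no microRNA was measured.

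A second set of windows had their densest point in an annotated exon, and 2 are printed as the transcript's own strand reads them. They show a T lymphoid-like window (Sla, an adaptor that dampens antigen receptor signalling) and a vascular endothelial-like window (Rassf4). Both stretches belong to transcripts annotated as retained introns. Capitals mark the same letters and, in Rassf4, an E-box (CAGCTG) that overlaps an ETS match. The bases were copied from GENCODE M21 transcripts.
Sla, chr15:66789058-66789357, minus strand: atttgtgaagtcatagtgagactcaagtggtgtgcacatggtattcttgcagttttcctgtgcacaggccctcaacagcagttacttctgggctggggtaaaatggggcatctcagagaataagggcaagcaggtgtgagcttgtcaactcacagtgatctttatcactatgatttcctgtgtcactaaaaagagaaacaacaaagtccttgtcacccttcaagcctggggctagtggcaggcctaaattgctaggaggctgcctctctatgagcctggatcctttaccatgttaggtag
Rassf4, chr6:116644279-116644578, minus strand: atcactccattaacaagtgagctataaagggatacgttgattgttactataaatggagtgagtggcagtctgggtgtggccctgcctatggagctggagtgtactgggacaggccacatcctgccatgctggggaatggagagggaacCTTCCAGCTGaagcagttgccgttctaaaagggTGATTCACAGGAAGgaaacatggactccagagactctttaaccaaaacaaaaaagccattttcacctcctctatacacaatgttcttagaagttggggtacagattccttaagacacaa

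In Sla, the window held 23 midpoints in vehicle and 168 in sunitinib, with 13 and 103 of them in the printed bases, which carried none of the marked letters. Rassf4 held 148 and 211, with 80 and 108 in the printed bases, and its printed stretch had 1 AP-1 and 2 ETS matches. Sla was thus far apart between the libraries, and Rassf4 was close.

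Sequence could be read for only part of the 3000 windows. A RefSeq start lay in 66 of them (2.20%, against 0.262% of all eligible windows), and in 57 of these windows a start bore another name than the host gene. The densest point was within 150 bp of the start in 36. Few were CpG-rich: 6 windows had a start with an observed over expected CpG ratio of at least 0.6, against 36.4% of all tabled promoter sequences on chromosomes 1 to 19. The median ratio was 0.29, against 0.39 over the table, at the same median GC content of 53%. The table was not limited to starts more than 5 kb from a protein-coding transcript start, as the windows were, so these are unlike sets.

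Letters of several factor families were counted on both strands of the 66 start sequences, of all tabled promoter sequences of the same length, and of 72 exon stretches of 300 bases. ETS letters (CNGGAAG) were in 29 start sequences (43.9%), in 32.2% of the table and in 40.3% of the exon stretches. RUNX letters (TGTGGT) were in 24.2%, 16.7% and 9.72%. AP-1 letters (TGANTCA) were in 12.1%, 7.85% and 13.9%, GATA letters (AGATAA) in 15.2%, 11.2% and 11.1%, and E-box letters (CAGCTG) in 22.7%, 16.3% and 36.1%. The letters common in CpG-rich promoters were less frequent than in the table: SP and KLF letters (CCCGCCC) were in 15.2%, 25.8% and 11.1%, and the CCAAT box in 33.3%, 37.3% and 30.6%. TEAD letters (ACATTCC) were in 3 start sequences (4.55%), in 3.89% of the table and in 2.78% of the exon stretches. The CTCF motif was in 2 start sequences (3.03%), in 0.895% of the table and in 7 exon stretches (9.72%). MEF2 letters (CTAAAAATA) were in 0 start sequences, 0.53% of the table and 2 exon stretches (2.78%), and CRE letters (TGACGTCA) in 0, 1.83% and 0. These are shares of letters in short windows, on few sequences, beside a table not limited by distance from coding starts. A match is not a binding site. The intronic sequence of the other windows was not analysed here.

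Most of the members lay in introns. The densest point was intronic in 2682 (89.4%), in a coding exon in 104, in a UTR in 103 and in an exon of a non-coding transcript in 111. By window centre, 89.4% were intronic against 92.9% of all eligible windows. A start of some other GENCODE transcript was in 243 (8.10%, against 2.29%), and 75 (2.50%, against 0.422%) held the start of a non-coding gene's transcript. The members were nearer to coding starts than eligible windows in general, at a median of 19.2 kb against 36.7 kb, and lay in shorter genes, with a median host length of 99.1 kb against 178.8 kb. They were mostly isolated: 2414 had no adjacent member, the longest run was 5 windows, and 977 genes held 1 member.

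The values that chose the members are given as a description. The summed midpoints ran from 151 to 556 with a median of 195, while the median of all eligible windows was 12. Just outside the upper limit was a window in A930004D18Rik (chr2:18027001-18028000) with 557 midpoints, and just inside was one in Agrp (chr8:105596001-105597000) with 556. At the lower limit, 23 members and 25 windows left out were tied at 151 midpoints, among them the last member, in Sgcd (chr11:46994001-46995000), and the first non-member, in Ntn1 (chr11:68344001-68345000). The sum weights the deeper sunitinib library more. Ranked instead by the mean of both libraries after scaling, 2938 of the 3000 windows were the same.

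The genes with most members were named by their number. The gene model Gm20388 held 26, and it spans 4435 kb and 71 other coding genes. A window was given to the shortest gene body that wholly held it, so these 26 lay wholly inside none of those genes. Gse1 held 16. Itpkb, a kinase of the calcium-releasing messenger inositol trisphosphate, held 14, as did 1 gene on chromosome 18, which is not described singly. Cuedc1 and Zmiz1 (a coactivator of Notch and other pathways) held 13 each, and Maml3 (a Notch coactivator), Tns1 (tensin, a link between integrins and actin) and Ttc28 held 11 each. Summed over its members, Itpkb had 1482 midpoints in vehicle and 2313 in sunitinib, a log2 ratio of 0.30 (0.21 to 0.40). Zmiz1 had 1012 and 1629, a log2 ratio of 0.35. Tns1 had 1242 and 1359, and was the one of these 9 genes with a ratio whose interval lay under 0, at -0.21 (-0.32 to -0.10).

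Signal was concentrated within the windows. In the median member, 53.1% of midpoints lay within 150 bp of the densest point. With densest points placed from the vehicle library alone, midpoints per base within 100 bp of them were 8.59 times those 1800 to 2000 bp away in the sunitinib library and 8.26 times in the vehicle library. In the sunitinib library, short fragments, which cannot span a nucleosome, gave 13.8, and fragments of mono-nucleosome length gave 5.25. The windows were chosen on the midpoints of vehicle and sunitinib, which raises the centre over the flanks in both, so these values are a description. Placing the densest points on vehicle midpoints also raises the vehicle centre, so the vehicle and sunitinib values are not like for like. The Yoda1 library had no part in the choice, and its deep fragments gave 8.04 from 1713 and 426 midpoints.

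**Figure D1:**
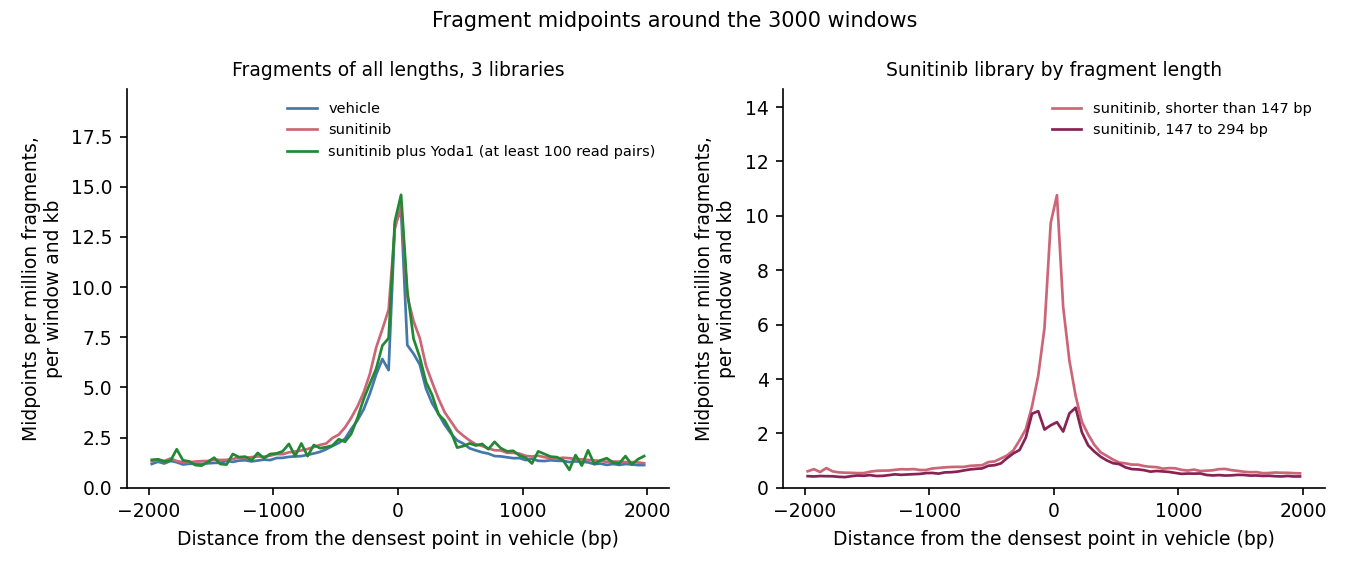
Fragment midpoints per 1000000 fragments, per window and kb (vertical axis), against the distance in bp from the densest point of each member in vehicle (horizontal axis), for the 3 libraries on the left and for 2 fragment lengths of the sunitinib library on the right. All 3 libraries peak at the same place, and the ratio of centre to flank was 8.26 in vehicle, 8.59 in sunitinib, and 13.8 for the short fragments.

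Of the 8 members with most midpoints, 2 stood apart in shape, Rgs8 and a window on chromosome 18 in Kctd16. In Kctd16, 98.2% of midpoints lay within 150 bp of the densest point, and it held 265 midpoints in vehicle and 282 in sunitinib. In Rgs8 (chr1:153683001-153684000, a regulator of G protein signalling), 97.6% lay that near, and it held 274 midpoints in vehicle and 272 in sunitinib. The other 6 were broader, with 36.7 to 67.8% of midpoints within that distance. Agrp held 208 and 348, Creb3l1 210 and 334, Vgll4 (a cofactor of TEAD factors) 245 and 296, Myh9 (non-muscle myosin) 222 and 312, Bcl2l1 (the survival protein BCL-XL) 209 and 320, and Trak1 (a mitochondrial transport adaptor) 248 and 279.

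Clusters of these nuclei were named from marker genes. The T lymphoid-like, fibroblast-like and cardiomyocyte-like clusters had all 10 of their 10 markers at least 2-fold above the other nuclei, the vascular endothelial-like and myeloid-like ones 9 of 10, mural-like 8 of 10, endocardial-like 6 of 7 and epicardial or mesothelial-like 7 of 7. A mixed lymphoid cluster met 5 of its B and 5 of its T markers, and 1 cluster with a low start enrichment stayed unnamed. No doublets were removed. Rag1, Cd8a, Cd8b1 and Cd3g were among the genes with the highest fold in the T lymphoid-like cluster. The class name does not say whether these were mature T cells or thymocytes, and whether they came from heart tissue was not tested. T lymphoid-like nuclei were 8.92% of nuclei in vehicle (244, exact binomial interval 7.88 to 10.0%) and 34.8% in sunitinib (1361, 33.3 to 36.3%). Vascular endothelial-like nuclei were 39.1% and 28.5%, fibroblast-like 13% and 7.16%, and cardiomyocyte-like 9.14% and 9.56%. A whole-library count therefore pools different mixtures, and more nuclei of a type cannot be told apart in it from more open chromatin per nucleus. For that reason each ratio is also given outside the lymphoid classes, which here means all called nuclei other than the T lymphoid-like and mixed lymphoid ones.

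Most windows that 1 class led were endothelial or T lymphoid ones. A class led a window where its level was at least 2-fold over every other class. Vascular endothelial-like nuclei led 225 windows (7.5%) and T lymphoid-like nuclei 172 (5.73%), with 34 led by myeloid-like, 21 by mural-like and 14 by cardiomyocyte-like nuclei. The other classes led 4 to 6 each, and 2514 windows (83.8%) had no leader. Against all other named nuclei pooled, a looser measure, 1173 windows were at least 2-fold more open in vascular endothelial-like nuclei, 614 in T lymphoid-like, 264 in myeloid-like, 219 in mural-like, 209 in mixed lymphoid, 188 in endocardial-like, 151 in fibroblast-like, 112 in cardiomyocyte-like and 18 in epicardial or mesothelial-like ones. Since the windows were picked on pooled counts, a class with more fragments could place more windows, and the vascular endothelial-like class was the largest over both libraries. Members took 2.90% of its fragments, 2.04% of the T lymphoid-like class and 1.20% of the cardiomyocyte-like class.

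In each class, among windows with at least 30 midpoints there, those with the highest fold over the next class were named, also where that fold was under 2 and the class did not lead. In vascular endothelial-like nuclei these were windows in Ablim1 (chr19:57266001-57267000, an actin-binding protein; 23.2 per 1000000 fragments, 6.19-fold over the next class), Lhfpl3 (17.5, 5.99-fold) and Sh3bp4 (21.3, 5.96-fold). The Ablim1 window held 121 midpoints in vehicle and 149 in sunitinib, with 0 in T lymphoid-like nuclei of either library. The T lymphoid-like ones had higher folds. A window in Clec16a (a regulator of mitophagy; chr16:10699001-10700000) stood at 20.8 per 1000000 fragments, 15.6-fold over the next class, one in Fars2 at 25.9 (10.6-fold) and one in Ntrk3 at 23.1 (9.77-fold). None of the 3 host genes was among the markers that named the class. The clusters were built from fragments of the same nuclei, which can include those in these windows, so the folds are a description.

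Cardiomyocyte-like windows were in Acot7 (an acyl-CoA thioesterase; 18, 3.64-fold), Slco3a1 (a transporter; 26.9, 2.90-fold) and Rilpl1 (21.5, 2.87-fold). Myeloid-like windows were in Fndc7 (38.7, 2.99-fold), Wdfy3 (32.3, 2.76-fold) and Chd9 (32.3, 2.69-fold). Fibroblast-like windows were in Nfix (a transcription factor; 17.8, 2.37-fold), Tnfrsf1b (20.9, 2.34-fold) and Kif5c (16.5, 2.12-fold). Mural-like nuclei led a window in Actn4 (alpha-actinin 4, an actin crosslinker; 36.3, 2.15-fold) and did not lead the one in Nfib (37.5, 1.61-fold). In endocardial-like nuclei Rfx8 (37.1, 1.57-fold), Slc7a1 (33.3, 1.44-fold) and Acer2 (28.6, 1.21-fold) came first, and Mogat1 (48.8, 1.38-fold) did in the mixed lymphoid cluster, all under the 2-fold that makes a leader. Folds were thus largest in the T lymphoid-like and vascular endothelial-like classes and small in the endocardial-like one, whose windows were also open in vascular endothelial-like nuclei.

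**Figure D2:**
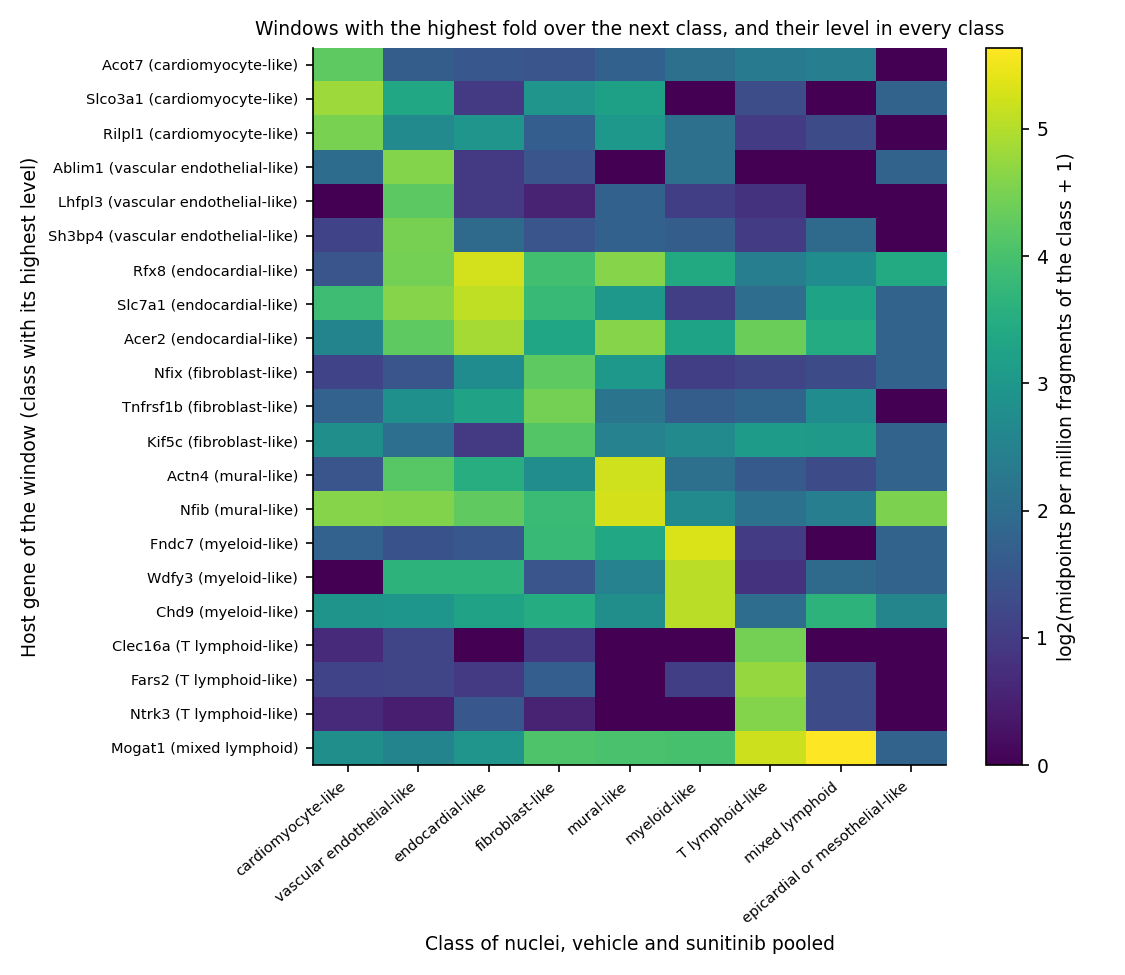
Level of the windows with the highest fold over the next class (rows, by host gene and class with the highest level) in each class of nuclei (columns), as log2 of midpoints per 1000000 fragments of the class plus 1, vehicle and sunitinib pooled. The Clec16a, Fars2 and Ntrk3 rows are bright in the T lymphoid-like column alone, while the Rfx8, Slc7a1 and Acer2 rows are bright in several columns.

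The members took a larger share of the sunitinib library than of the vehicle library. Their 393219 midpoints were 1.70% of sunitinib fragments (1.69 to 1.70%) and their 259739 midpoints 1.42% of vehicle fragments (1.41 to 1.42%). Within called nuclei the shares were 2.17% and 2.09%, and among the barcodes not called as nuclei 1.10% and 0.881%. Windows with a coding start moved in the same direction, from 14.3% to 16.9%, as did the 3000 most accessible intergenic distal windows, from 1.84% to 2.18%. The remaining intragenic distal windows went from 30.8% to 29.3%. The share of short fragments in members was 54.2% in vehicle and 52.9% in sunitinib, between that of other intragenic distal windows (50.1% and 45.4%) and that of start windows (57.5% and 55.7%).

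In whole libraries, most windows that were higher in sunitinib were more open in T lymphoid-like than in all other named nuclei. Each window's ratio is sunitinib over vehicle midpoints per fragment on chromosomes 1 to 19 (pseudocount 0.5), and it is called higher or lower at 1.5-fold, a size and not a test. Of 3000 members, 656 (21.9%) were higher and 18 (0.6%) lower. Over all 21908 intragenic distal windows with at least 60 midpoints and 20 expected in each library, 23.3% were higher and 5.01% lower. The share of higher members was thus near the background and that of lower members under it. The background windows were shallower, with a median of 86 midpoints against 195 in members. The median log2 ratio was 0.18 for members and 0.14 for all measured windows. Scaled by the measured intragenic distal windows instead, a shift of -0.23, the split was 471 higher and 174 lower with a median of -0.06. Higher windows were then 73.0% of those changed, against 97.3%. Among called nuclei alone, 497 of 2992 members were higher and 158 lower, with a median of 0.000168.

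The 8 windows with the highest ratios all had their highest level in T lymphoid-like nuclei. A window in Sdccag8 (chr1:176946001-176947000) held 22 midpoints in vehicle and 167 in sunitinib, a log2 ratio of 2.56 (1.94 to 3.30), and 6 and 83 of them were in T lymphoid-like nuclei. The Sla window printed above followed at 2.50 (1.90 to 3.23), and then Atp10a (chr7:58755001-58756000) with 26 and 186 midpoints at 2.48. Clec16a had 21 and 143 at 2.40. Cd28, the costimulatory receptor of T cells, had 23 and 152 at 2.36 (1.75 to 3.09). Jazf1 had 28 and 184 (2.36), Wdfy2 25 and 158 (2.30) and Wdr12 22 and 135 (2.25). Outside the lymphoid classes few fragments were left in these windows, such as 4 and 15 in Sla and in Clec16a and 4 and 9 in Atp10a. Clec16a held 8 member windows in all, with 429 and 1104 midpoints and a summed log2 ratio of 1.02 (0.86 to 1.19).

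Of the 656 higher windows, 629 had a higher level in T lymphoid-like than in all other named nuclei, and 536 at least 2-fold so, against 78 of the other 2344. Their median fold in T lymphoid-like nuclei was 4.78, against 0.307. By the stricter measure, 473 of these 656 windows had no leading class. All 172 windows led by T lymphoid-like nuclei were higher, with ratios from 0.62 to 2.56 and a median of 1.45. These windows summed to 402 midpoints per 1000000 fragments in vehicle and 1105 in sunitinib. The share of T lymphoid-like nuclei moved with them, from 8.92% to 34.8% of nuclei and from 2.94% to 14.7% of library fragments. Within T lymphoid-like nuclei themselves, 219 members had enough fragments, of which 31 (14.2%) were higher and 22 (10.0%) lower, against 12.7% and 9.36% of all 267 measured windows, with a median log2 ratio of -0.01, and members took 2.01% of the class's fragments in vehicle and 2.05% in sunitinib. The ratio and the T lymphoid level were counted on overlapping fragments, so the relation is a description.

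**Figure D3:**
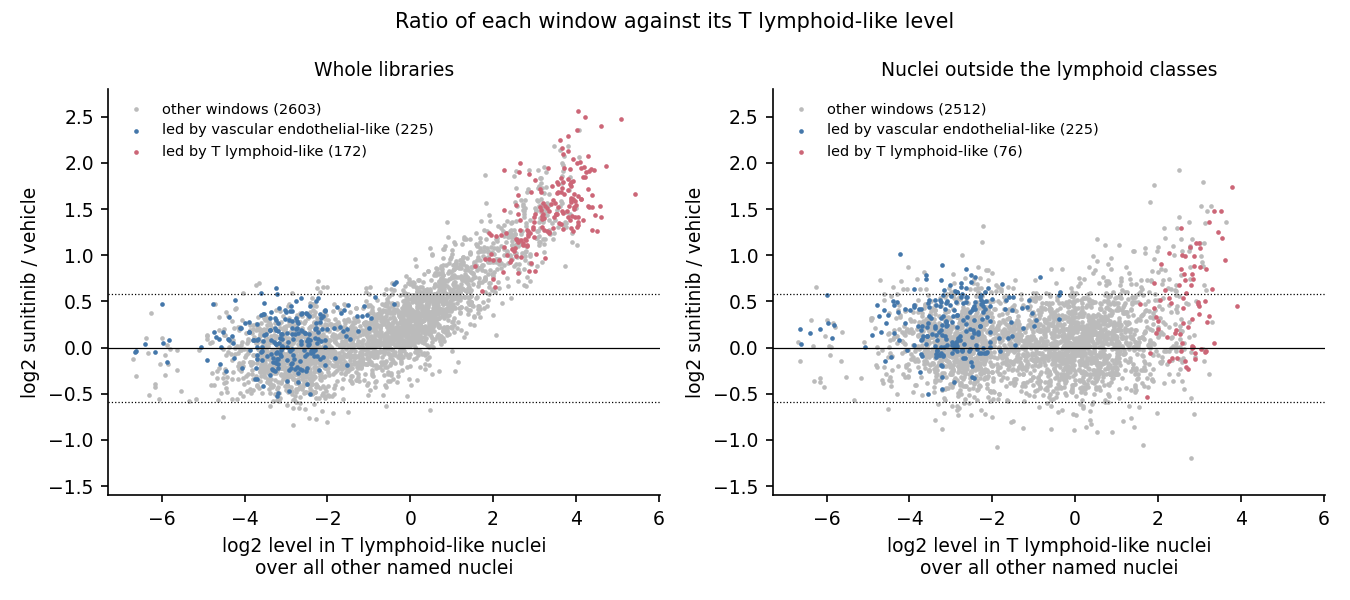
Log2 ratio of sunitinib to vehicle for each member (vertical axis) against its log2 level in T lymphoid-like nuclei over all other named nuclei (horizontal axis), in whole libraries on the left and in nuclei outside the lymphoid classes on the right, with dotted lines at 1.5-fold. On the left, all 172 windows led by T lymphoid-like nuclei (red) lie above the upper dotted line, and on the right 31 of the 76 that could be measured do.

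The 18 lower windows were of other kinds, and 0 of them were 2-fold more open in T lymphoid-like nuclei. The lowest were in Tns1 (chr1:73954001-73955000), with 108 midpoints in vehicle and 76 in sunitinib and a log2 ratio of -0.84 (-1.29 to -0.41), and in Dusp8 (a phosphatase of stress kinases; chr7:142084001-142085000), with 105 and 76 (-0.80). The next were Fndc3b with 89 and 66 (-0.77), Bahcc1 with 134 and 100 (-0.76), Mall with 108 and 81 (-0.75), Ablim1 (chr19:57079001-57080000) with 93 and 72 (-0.71), Gm20388 with 94 and 73 (-0.70) and Rbms3 with 94 and 74 (-0.68). None reached 2-fold. The Tns1 window kept its direction outside the lymphoid classes, with 72 and 53 midpoints (-0.73).

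Outside the lymphoid classes fewer windows differed. There 2813 members had at least 30 midpoints with 10 expected in each library, 204 (7.25%) were higher and 49 (1.74%) lower, against 10.8% and 9.09% of all measured windows. The median was 0.08, against 0.02. Both shares were under the background, whose windows were shallower, with a median of 45 midpoints against 118 in members. Of the 204 higher windows, 103 were at least 2-fold more open in T lymphoid-like than in other named nuclei and 136 were also higher in whole libraries. The part of lymphoid fragments in these ratios was not tested. With only short fragments 145 were lower, and in nuclei with at least 3000 fragments 110 were.

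The highest ratios there rested on few fragments and on lymphoid windows. Capn3 had 5 midpoints in vehicle and 25 in sunitinib, a log2 ratio of 1.92 with an interval from 0.62 to 3.77. Tspan5 had 6 and 27 (1.79), Itgb7, an integrin of gut-homing lymphocytes, 9 and 39 (1.76), and Kcnq5 6 and 26 (1.74). Trappc9 had 12 and 45 (1.57), Fam107b and Herc3 7 and 26 each (1.53), and Dthd1 9 and 32 (1.48). All 8 had their highest level in T lymphoid-like or mixed lymphoid nuclei.

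The 8 lowest ratios lay between -1.19 and -0.88. Plekhm2 (a lysosome transport adaptor) had 52 midpoints in vehicle and 30 in sunitinib, a log2 ratio of -1.07 (-1.78 to -0.41). Ctsb (cathepsin B, a lysosomal protease) had 77 and 51 (-0.88, -1.43 to -0.36), Myh9 (chr15:77820001-77821000) 74 and 49 (-0.88), Stat3 54 and 35 (-0.91), Nck1 52 and 34 (-0.90) and Pecam1 (the endothelial adhesion molecule; chr11:106658001-106659000) 51 and 33 (-0.91). Gm37240 had 21 and 11 (-1.19) and Itpkb 31 and 18 (-1.06). Their intervals lay under 0. Of the 49 lower windows, 3 were higher in whole libraries, whose counts include these nuclei.

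Vascular endothelial-like nuclei gave the most measurable class. With the same minimum, 2489 members were measured, of which 232 (9.32%) were higher and 78 (3.13%) lower, against 12.8% and 6.41% of all measured windows, and 136 were lower in nuclei with at least 3000 fragments. The median was 0.09, against 0.08. Scaled by measured windows the split was 168 and 116, with a median of 0.0028. The highest were Akna with 6 and 31 midpoints (1.80, 0.61 to 3.44), Zcchc24 with 7 and 35 (1.76), Lrrfip1 with 6 and 29 (1.70) and Cuedc1 with 7 and 31 (1.59). The lowest were a window in Ctsb with 55 and 29 (-1.39, -2.11 to -0.73), Nck1 with 28 and 15 (-1.36), Trak1 (chr9:121360001-121361000) with 26 and 15 (-1.25), Stum with 26 and 17 (-1.08) and Dlgap3 with 51 and 34 (-1.06). Ctsb and Nck1 were thus low in both counts that leave the lymphoid classes out, which share these fragments.

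The 225 windows led by vascular endothelial-like nuclei moved little. They summed to 1130 midpoints per 1000000 fragments of the whole library in vehicle and 1204 in sunitinib. Such nuclei went from 39.1% to 28.5% of nuclei, and their fragments from 17.9% to 19.7% of library fragments. In whole libraries 4 were higher and 0 lower, with a median of 0.09. Leaving out the lymphoid classes, 23 (10.2%) were higher and 0 lower, with a median of 0.24. Of all measured windows 10.8% were higher and 9.09% lower there, and of measured members 7.25% and 1.74%. Vascular endothelial-like nuclei made up more of the fragments outside the lymphoid classes than any other class. They held 3.27e+06 of 7.39e+06 such fragments in vehicle and 4.56e+06 of 9.04e+06 in sunitinib, a larger share. The part of this share in the ratios was not tested. The 188 windows that were 2-fold more open in endocardial-like than in all other named nuclei had 0 higher and 15 (7.98%) lower outside the lymphoid classes, a median of -0.08. The share of lower windows was under the 9.09% of all measured windows, which were shallower, and above the 1.74% of all measured members. Endocardial-like nuclei numbered 157 in vehicle and 70 in sunitinib, with 3.92% and 1.44% of library fragments, and the part of these numbers in the ratios was not tested.

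Cardiomyocyte-like and fibroblast-like nuclei could be measured in few members. In cardiomyocyte-like nuclei 43 members were measured, 3 higher and 7 lower, against 10.6% and 17.9% of all 123 measured windows, with a median of -0.12 (all windows -0.09). Ccdc92b had 10 and 30 midpoints (1.08, 0.05 to 2.32), Fndc3b (chr3:27466001-27467000) 19 and 11 (-1.22, -2.47 to -0.11) and Slco3a1 28 and 17 (-1.17, -2.14 to -0.26). These 3 were the only measured windows with intervals that left out 0 in this class. In fibroblast-like nuclei 213 were measured, 21 higher and 40 lower, against 9.24% and 18.1% of 476, with a median of -0.12 (all windows -0.11). Both medians were close to those of all measured windows. Scaled by measured windows, cardiomyocyte-like members split 7 and 6 and fibroblast-like members 27 and 26. That scaling centres the measured windows by its construction, so an even split follows from it.

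**Figure D4:**
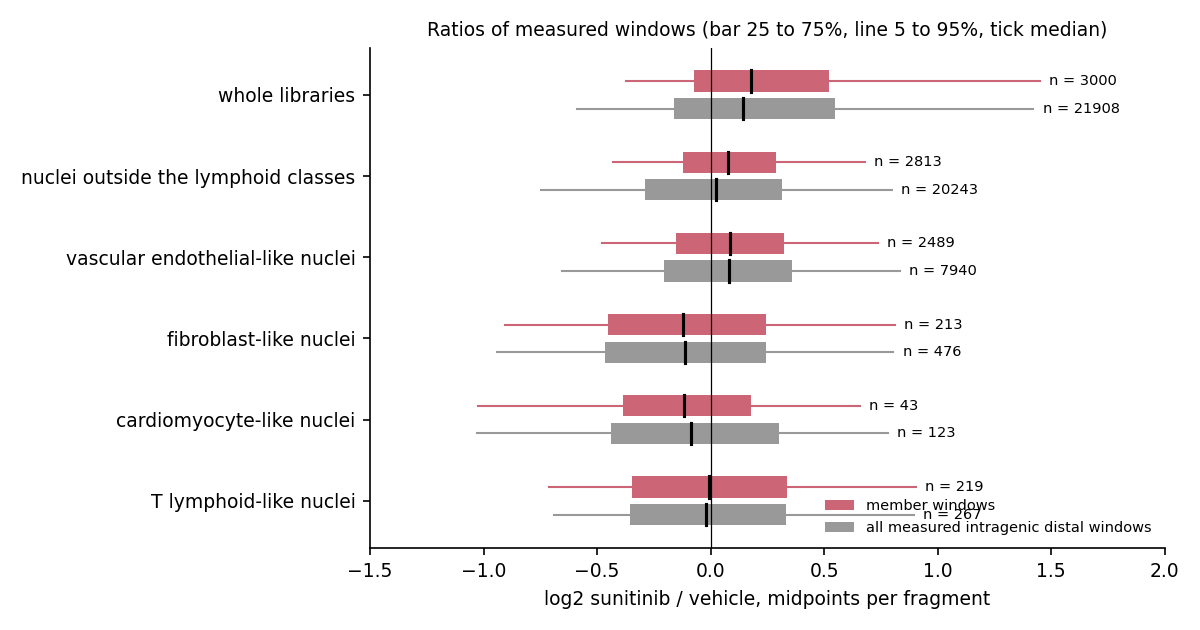
Log2 ratio of sunitinib to vehicle (horizontal axis) in whole libraries, outside the lymphoid classes and in each class, for members (red) and for all measured intragenic distal windows (grey); bars span the 25th to 75th percentiles, lines the 5th to 95th and ticks mark the median. In whole libraries the members' line runs from -0.37 to 1.45, and outside the lymphoid classes from -0.43 to 0.68.

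The members were also counted by lists of host genes. Of all eligible windows 0.374% were members. The share was 2.40% in endothelial genes, 1.23% in sunitinib target and Piezo genes, 1.21% in T lymphoid genes, 1.17% in fibroblast and matrix genes and 1.14% in myeloid genes. Some genes are on more than 1 list. Kdr and Flt1 are on both the endothelial and the sunitinib target and Piezo lists, and their windows count in both shares. It was 0.903% in genes of the stretch-responsive YAP-TEAD pathway, 0.853% in metabolism genes, 0.424% in sarcomere and Z-disc genes, 0.355% in cardiac ion channels, 0.231% in calcium handling genes and 0.209% in cardiac transcription factors. Endothelial genes thus held the highest share of the 11 lists, and calcium handling and cardiac transcription factor genes the lowest. The members were picked on pooled counts, so this order is a description. Vascular endothelial-like nuclei had 7834599 fragments over both libraries and cardiomyocyte-like nuclei 1670619, and the part of class size in the order was not tested.

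Sunitinib blocks the receptors of VEGF, PDGF and related ligands, and Yoda1 opens PIEZO1. Of 11 such genes, 4 held 11 members. In Kdr, the main VEGF receptor of endothelium, 3 windows held 168 midpoints in vehicle and 202 in sunitinib (chr5:75933001-75934000), 113 and 146 (chr5:75962001-75963000) and 68 and 94 (chr5:75970001-75971000), with log2 ratios of -0.07, 0.03 and 0.12. The 5 windows of Flt1, the other endothelial VEGF receptor, ranged from -0.18 to 0.18. One of them (chr5:147658001-147659000) held 38 and 73 midpoints outside the lymphoid classes, a log2 ratio of 0.64 (0.07 to 1.26), and was the one of 10 measured there that was higher. Piezo1 held 2 windows. One (chr8:122517001-122518000) had 61 and 95 midpoints, a log2 ratio of 0.30 (-0.18 to 0.79), and 23 and 56 in vascular endothelial-like nuclei, 0.79 (0.08 to 1.57). The other (chr8:122523001-122524000) had 112 and 139, at -0.03. Kdr, Flt1 and Piezo1 windows were highest in vascular endothelial-like nuclei.

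Flt3, a receptor of blood progenitors, differed from these. Its window (chr5:147341001-147342000) held 35 and 138 midpoints, a log2 ratio of 1.62 (1.10 to 2.22), and 12 and 74 of them were in T lymphoid-like nuclei, where its level was 21.9 per 1000000 fragments. Outside the lymphoid classes 5 and 11 were left. It was the only one of the 11 that was higher in whole libraries. The median of the 11 was 0.10, and -0.14 when scaled by measured windows.

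Endothelial genes had 54 members in 14 genes, of which 11 (20.4%, against 23.3% of all measured windows) were higher and 0 lower in whole libraries (median 0.17, or -0.06 scaled by measured windows, with 7 higher and 1 lower). Outside the lymphoid classes 7 (13%, against 10.8%) were higher and 1 lower, with a median of 0.16, so both shares of higher windows were near the background. Ptprb, the endothelial phosphatase that restrains TEK signalling, had a window (chr10:116288001-116289000) with 58 and 110 midpoints. Of these, 39 and 89 were outside the lymphoid classes, a log2 ratio of 0.89 (0.34 to 1.48), and in vascular endothelial-like nuclei 35 and 81, 0.72. Epas1, the hypoxia-inducible factor HIF-2 alpha, had 4 windows, of which one (chr17:86770001-86771000) held 46 and 95 outside the lymphoid classes, 0.75 (0.23 to 1.3), and 29 and 67 in vascular endothelial-like nuclei, 0.71. Both windows had 5 or fewer midpoints per library in T lymphoid-like nuclei. Tek, Eng, Erg and Ldb2 windows had whole-library ratios between -0.22 and 0.36, with no interval that left out 0.

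Several genes on the endothelial list are also used by lymphocytes. The 7 windows of Fli1, an ETS factor of endothelium and blood, ranged from -0.06 to 1.54. The one at 1.54 (chr9:32495001-32496000; 33 and 123 midpoints) was highest in T lymphoid-like nuclei, and the one at -0.06 (chr9:32519001-32520000; 89 and 108) in vascular endothelial-like nuclei. Ets1, on both the endothelial and the T lymphoid list, had 7 windows from -0.23 to 1.69. The window at 1.69 (chr9:32746001-32747000; 31 and 128) was highest in T lymphoid-like nuclei, and that at -0.23 (chr9:32646001-32647000; 109 and 118) in mural-like nuclei.

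T lymphoid genes had 22 members in 9 genes, of which 15 (68.2%, against 23.3%) were higher and 0 lower, with a median of 1.05 (0.81 scaled by measured windows). Tcf7, a transcription factor of T cells, had a window (chr11:52275001-52276000) with 44 and 193 midpoints, a log2 ratio of 1.78 (1.31 to 2.30), and 8 and 13 outside the lymphoid classes. Ikzf1, a lymphoid transcription factor, had 47 and 156 (1.38), Bcl11b, a T lineage factor, 42 and 116 (1.12), Ptprc, the pan-leukocyte phosphatase CD45, 58 and 158 (1.10) and Runx1 50 and 127 (1.00). Cd247, the zeta chain of the T cell receptor, had 6 windows between 0.01 and 1.85. The one at 1.85 was 6.60-fold over the next class in T lymphoid-like nuclei, and the one at 0.01 was highest in vascular endothelial-like nuclei. Only 14 of the 22 had enough fragments outside the lymphoid classes, and 3 of these (21.4%, against 10.8%) were higher (median 0.28).

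Genes of contraction and conduction held few members. The 10 sarcomere and Z-disc windows had 0 higher and 0 lower and a median of -0.11 (-0.34 scaled by measured windows, with 1 lower). Of 7 calcium handling windows 1 was higher, in Camk2g (55 and 135, 0.95), where T lymphoid-like nuclei had the highest level and 22 and 24 midpoints were left outside the lymphoid classes. The median of these 7 was -0.13. The 5 windows of the calcium release channel gene Itpr1 ranged from -0.25 to 0.25. Ion channel genes had 7, with a median of 0.12 (-0.11 scaled). The higher one was in Kcnh2, a repolarising potassium channel (61 and 172, 1.15), again highest in T lymphoid-like nuclei, with 22 and 29 outside the lymphoid classes. Cardiac transcription factors had 3 windows with a median of 0.25. One in Mef2d (chr3:88149001-88150000) held 84 and 148, with 37 and 72 outside the lymphoid classes (0.66, 0.08 to 1.28) and 16 and 50 in vascular endothelial-like nuclei (1.13, 0.33 to 2.08).

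In the fibroblast and matrix list, 13 of 16 windows were in the neighbouring basement membrane collagen genes Col4a1 and Col4a2. The list had 2 higher, in Lamc1 (61 and 150, 0.95) and Col15a1 (85 and 168, 0.64), and 0 lower, with a median of -0.09 in whole libraries (-0.32 scaled, with 1 higher and 2 lower) and 0.07 outside the lymphoid classes. Adjacent Col4a2 windows had ratios of opposite sign. One (chr8:11382001-11383000) had 160 and 137 midpoints, a log2 ratio of -0.56 (-0.90 to -0.23), and 103 and 81 outside the lymphoid classes (-0.64, -1.08 to -0.20). The next (chr8:11383001-11384000) had 88 and 124 (0.15) and 46 and 95 outside the lymphoid classes (0.75, 0.23 to 1.3). The first was highest in fibroblast-like and the second in vascular endothelial-like nuclei. Myeloid genes had 7 windows with 1 higher, in Runx1, and a median of 0.18 (-0.06 scaled).

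YAP and TEAD partners had 5 windows, in Amotl1, Amotl2, Lats2, Wwtr1 (TAZ) and Tead1, with ratios from -0.23 to -0.03 and a median of -0.05 (-0.28 scaled). Their median outside the lymphoid classes was 0.10, and 0 of the 5 were higher or lower. Metabolism genes had 9 windows, with 1 higher and a median of 0.32 (0.09 scaled). It was in Prkag2, a subunit of the energy sensor AMPK (chr5:24973001-24974000; a log2 ratio of 0.95, 0.51 to 1.41), with 7 and 49 midpoints in T lymphoid-like nuclei and 29 and 40 outside the lymphoid classes (0.17).

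The Yoda1 library could be read only in sums. Members took 1.47% of its fragments (1.44 to 1.5%) and 1.54% of its deep fragments (1.49 to 1.59%), between the shares of vehicle and sunitinib in both cases. With 1 fragment for each start and end, the share was 1.40%, under the 1.41% of vehicle. In called nuclei it was 1.82%, under the 2.09% of vehicle. A member held a median of 2 midpoints, 827 held 0 and 1078 held 0 deep ones. A count of 0 allows up to 3 midpoints, or 0.0012% of the deep fragments, which is above the median, so no single window was compared.

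By class, T lymphoid windows were low in the Yoda1 library. The 172 windows led by T lymphoid-like nuclei summed to 206 per 1000000 fragments in the deep part of that library, against 402 in vehicle and 1105 in sunitinib, a log2 ratio to sunitinib of -2.41 (-2.85 to -2.04). The 614 windows 2-fold more open in T lymphoid-like than in all other named nuclei gave 1206, 1793 and 3779 (-1.65, -1.81 to -1.49, against sunitinib). The 112 windows with that excess in cardiomyocyte-like nuclei gave 909, against 544 in vehicle and 547 in sunitinib, a log2 ratio to sunitinib of 0.74 (0.54 to 0.92). The 1173 vascular endothelial-like windows gave 6768, 6305 and 6408 (0.08, 0.01 to 0.15). Other classes also differed from sunitinib. Fibroblast-like windows stood at a log2 ratio of 0.42 (0.22 to 0.60), endocardial-like at 0.35 (0.17 to 0.52) and mural-like at 0.26 (0.10 to 0.42), while mixed lymphoid windows stood at -1.36 (-1.63 to -1.12) and myeloid-like at -0.26 (-0.43 to -0.09). The interval of the epicardial or mesothelial-like windows, at 0.41 (-0.11 to 0.85), held 0. These intervals take each deep fragment as independent. Of the 12 nuclei called in this library, 3 were cardiomyocyte-like, 1 was vascular endothelial-like, 8 fell in the unnamed cluster and 0 were T lymphoid-like. Cell make-up, library quality and treatment cannot be told apart here.

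**Figure D5:**
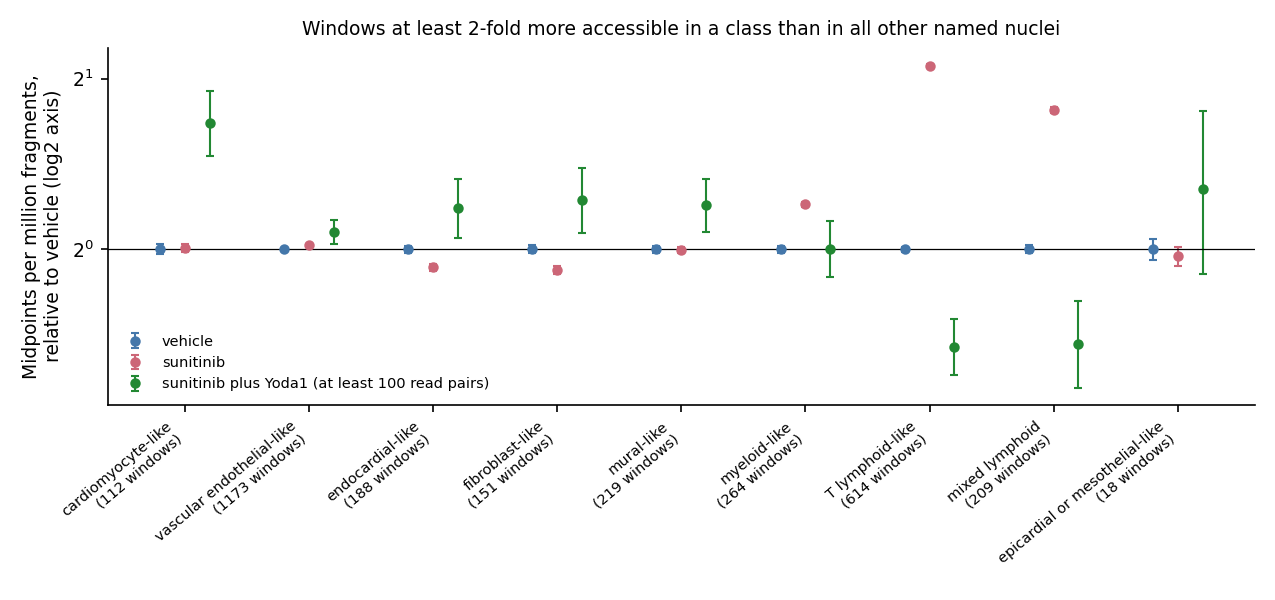
Summed midpoints of windows at least 2-fold more open in a class than in all other named nuclei, per 1000000 fragments and relative to vehicle (log2 vertical axis), for each class (horizontal axis) and library, with 95% counting intervals of each library. The T lymphoid-like windows stand above vehicle in sunitinib (3779 against 1793 per 1000000 fragments) and below it in the deep fragments of the Yoda1 library (1206), where cardiomyocyte-like windows stand above (909 against 544).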

How the data were processed

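Fragment tables of 3 single-nucleus libraries were used. The authors made them with cellranger-arc 2.0.0 (vehicle, sunitinib) and 2.0.2 (Yoda1) against its mm10 reference, per the file headers, and the submitters' processing notes also name Cell Ranger and Signac. Column 5 of each deposited table is a whole-number count of read pairs behind a unique fragment; the authors' duplicate removal was kept and no table was normalized. The RNA arm was not analysed here.

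From the tables, fragment midpoints were counted in windows of 1000 bp. A log2 ratio is sunitinib over vehicle per fragment on chromosomes 1 to 19 of the same barcodes, with a pseudocount of 0.5 and an exact conditional 95% interval. A ratio was read only with at least 60 midpoints summed and 20 expected in each library (30 and 10 outside the lymphoid classes and within a class). Higher and lower mean 1.5-fold or more. Depth, from 583792 to 23653823 unique fragments, sets the precision. PCR copies and shared fragments are not independent molecules, so intervals and the limits for counts of 0 cover counting error only.

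Nuclei had at least 1000 fragments, an enrichment of at least 4 at coding starts and a mono-nucleosome to short fragment ratio under 4. They were clustered with latent semantic indexing of 60000 tiles of 5 kb (30 components, 20 neighbours) and Leiden (leidenalg 0.10.2, resolution 0.8), and a cluster was named from at least 3 markers 2-fold above the rest. No doublet caller was run, so a class can hold doublets. Barcodes outside the named classes stay in whole-library counts. Python 3.11.15, numpy 2.4.6, pandas 2.3.3, scipy 1.17.1 and scikit-learn 1.9.0 were used. The ratio and interval step was tested on simulated counts, and the counting of midpoints was not.

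With 1 library per group no test across windows was made. The members, gene lists and markers were chosen with earlier results of these data known. Named windows were, by rule, the 8 with most midpoints, the 8 genes with most members, the 8 highest and 8 lowest ratios in whole libraries and outside the lymphoid classes and the 5 highest and lowest in cardiomyocyte-like and vascular endothelial-like nuclei (intervals without 0, 1 per gene), the 3 windows of each class with the highest fold over the next and 30 midpoints, and members of the gene lists. Some items are not reported here. The 106 members on chromosome 18 were counted, and 1 of them is named. Sequences were taken from RefSeq promoter and microRNA tables and GENCODE transcripts, so motif and base content of intronic windows, which the plan held, were not analysed here. Alternatives changed the fragment length, barcodes, scaling, fold, window offset, ranking and nucleus filters.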

Additional observations from a re-analysis of the deposited data

Results flagged for a closer look

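The median log2 ratio of sunitinib to vehicle over measured members differed in sign between classes of nuclei. It was -0.12 in cardiomyocyte-like nuclei (43 windows), 0.085 in vascular endothelial-like nuclei (2489 windows) and -0.12 in fibroblast-like nuclei (213 windows). The difference between classes was not tested, since each group was 1 library, and the windows measured in each class were largely different ones. Over all measured intragenic distal windows the medians were -0.09, 0.08 and -0.11. Scaled by measured windows, which centres those windows by its construction, the members' medians were -0.026, 0.0028 and -0.019. Among windows measured in both of a pair of classes (33 for vascular endothelial-like and cardiomyocyte-like, 195 for vascular endothelial-like and fibroblast-like, 8 for cardiomyocyte-like and fibroblast-like), 0 had intervals that left out 0 on opposite sides. Few members had intervals above or below 0 in cardiomyocyte-like (1 and 2) or fibroblast-like nuclei (4 and 8). This count therefore had little room to differ from 0 and cannot tell whether the classes moved alike.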

How the results depend on the processing

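In whole libraries, 656 windows were higher and 18 lower. With only short fragments 50 were lower, scaled by measured windows 174, in called nuclei alone 158, with windows shifted by 500 bp 30, and at 2-fold 354 were higher and 0 lower. The median of 0.18 became 0.26 with short fragments, 0.16 with windows ranked by the mean of scaled libraries, 0.000168 in called nuclei and -0.056 when scaled by measured windows. That scaling subtracts a log2 shift of 0.23 by its construction. Outside the lymphoid classes, the 49 lower windows became 145 with short fragments and 110 in nuclei with at least 3000 fragments, and at 2-fold 50 were higher and 3 lower. In cardiomyocyte-like nuclei, 3 higher and 7 lower became 1 and 1 (short fragments, 5 measured), 0 and 0 (at least 3000 fragments, 1 measured), 2 lower without the 5% of nuclei with most fragments, 7 higher when scaled and 3 lower at 2-fold. In vascular endothelial-like nuclei, 78 lower became 136 in nuclei with at least 3000 fragments, and 2-fold gave 40 and 8. In fibroblast-like nuclei, 21 higher and 40 lower became 2 and 3 (short fragments), 4 and 11 (at least 3000 fragments), 8 and 24 (without the 5% with most fragments), 26 lower when scaled, and 6 and 8 at 2-fold. Fewer windows were measured under the fragment and nucleus filters; the cause of the other shifts was not tested.

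The vehicle share of 1.42% was 1.43% with mean ranking, 1.41% with shifted windows, 1.48% with short fragments, 1.41% with 1 fragment for each start and end and 2.09% in called nuclei. The sunitinib share of 1.70% was 1.69%, 1.68%, 1.85%, 1.69% and 2.17%. The Yoda1 share of 1.47% was 1.63% with short fragments, 1.40% with 1 fragment for each start and end, 1.82% in called nuclei and 1.54% in deep fragments, the last chosen after seeing the data. Sunitinib stood above vehicle under each of these 5 settings. Yoda1 stood below vehicle with 1 fragment for each start and end and in called nuclei. The short fragment share in called nuclei was 51.0% in vehicle, 51.0% in sunitinib and 55.7% in Yoda1. Windows led by vascular endothelial-like nuclei were 2.90% at 3-fold, 5.57% in vehicle alone, 4.87% in sunitinib alone and 39.1% over all other named nuclei, the last added after seeing the data. Those led by T lymphoid-like nuclei were 2.50%, 4.73%, 3.33% and 20.5%, and windows with no leader 94.5%, 87.1% and 89.7%. Depth limits the smaller classes most, and single windows of the Yoda1 library could not be read. No paired analysis was possible because each group was 1 library.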
